A study of Mus musculus with 9 samples.

Results

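The 10 genes described here, Bnip3, Bnip3l, Ankrd37, Ndrg1, Car9, Car12, Adm, Ddit4, Kdm3a and Mxi1, are known targets of the hypoxia-inducible factors (HIF) that lie outside the glycolytic pathway. They were chosen by name, with earlier results of these data known. All 10 were found among the 40548 genes of the day 0 and day 7 tables and the 40526 genes of the day 4 tables. RNA sequencing was performed on primary calvarial cells, the osteoblast progenitors that digestion releases from the skull of newborn C57BL/6 mice (C57BL/6J in the methods). Cells were collected at confluence (day 0), or on day 4 or 7 of culture with β-glycerol phosphate and ascorbic acid, which promote mineralization. There were 3 libraries per stage. The labels name no engineered allele and no hypoxic treatment, and they do not give the oxygen level of the cultures. The labels add collagenase I before trypsin for mineralized cells only, so stage and digestion can go together. The study calls the libraries of a stage biological replicates, but the labels do not say whether they came from separate isolations. The p-values below therefore rest on the spread between these libraries, which may be partly technical. Those of limma, the main test, rest mostly on spread pooled over all genes, so a gene's own spread counted little.

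In cells with enough oxygen, prolyl hydroxylases of the Egln family mark HIF alpha subunits for destruction by the Vhl ubiquitin ligase. When oxygen is short the subunits persist, pair with Arnt and bind DNA at a core of ACGTG or GCGTG. The pathway is active in the skeleton, where HIF in osteoblasts couples bone formation to the growth of vessels. Besides glycolytic enzymes, it drives genes for mitophagy (Bnip3, Bnip3l), pH control (Car9, Car12), a vasodilating peptide (Adm), restraint of mTOR and MYC signalling (Ddit4, Mxi1), histone demethylation (Kdm3a), and genes known mainly as hypoxia markers (Ankrd37, Ndrg1).

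The promoter windows of 4 of these genes are shown because ACGTG is a form of the HIF core. Bnip3, Ankrd37 and Car9 hold it, while Car12, which also rose strongly, does not. Each line gives the 250 bases before a RefSeq transcription start (GRCm38.p6), 5′ to 3′ on the strand of the gene, with ACGTG on either strand (ACGTG or CACGT) in capitals. Bnip3 is at chr7:138909507-138909756 (reverse strand), Ankrd37 at chr8:45999851-46000100 (reverse), Car9 at chr4:43506776-43507025 (forward) and Car12 at chr9:66713436-66713685 (forward).
Bnip3: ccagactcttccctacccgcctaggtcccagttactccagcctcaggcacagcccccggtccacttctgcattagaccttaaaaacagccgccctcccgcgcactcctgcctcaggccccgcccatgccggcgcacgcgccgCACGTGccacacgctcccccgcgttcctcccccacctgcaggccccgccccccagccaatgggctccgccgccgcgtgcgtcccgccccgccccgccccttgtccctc
Ankrd37: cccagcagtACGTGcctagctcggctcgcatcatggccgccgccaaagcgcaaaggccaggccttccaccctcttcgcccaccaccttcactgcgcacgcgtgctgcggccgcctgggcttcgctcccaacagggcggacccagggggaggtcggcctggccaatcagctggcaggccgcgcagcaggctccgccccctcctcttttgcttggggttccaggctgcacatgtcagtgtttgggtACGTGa
Car9: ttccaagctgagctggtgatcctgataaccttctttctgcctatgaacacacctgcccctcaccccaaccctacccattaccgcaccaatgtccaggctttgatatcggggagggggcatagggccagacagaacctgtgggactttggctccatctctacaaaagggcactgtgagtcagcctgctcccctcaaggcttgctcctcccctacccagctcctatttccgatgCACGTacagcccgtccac
Car12: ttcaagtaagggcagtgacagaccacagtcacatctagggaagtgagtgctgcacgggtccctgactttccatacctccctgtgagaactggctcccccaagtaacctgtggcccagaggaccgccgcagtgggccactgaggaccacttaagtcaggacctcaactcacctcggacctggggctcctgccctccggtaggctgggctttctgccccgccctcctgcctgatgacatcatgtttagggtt

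RefSeq windows, running from 250 bases before to 50 after a start, were given for 8 of the 10 genes, with 12 windows in all. No window was given for Bnip3l or Ndrg1. ACGTG on either strand was present in a window of 5 of the 8 genes, namely Bnip3, Ankrd37, Car9, Ddit4 and Mxi1. Among the 27025 genes with windows, 21.8% held it. In Bnip3 the letters form CACGTG, which reads the same on both strands and begins 108 bases before the start. Ankrd37 holds ACGTG at 241 and at 6 bases before its start, Car9 holds CACGT at 18, and Ddit4 holds the core at 187. Mxi1 has 3 windows, of which 1 holds it at 66 and another at 25 bases before the start. The other form of the core, GCGTG on either strand, was present in 5 of the 8 genes against 35.2% of all genes with windows, and 7 of the 8 genes held at least 1 of the 2 forms, against 46.7% of all genes with windows. Kdm3a and Mxi1 have 3 windows each, which gives them more bases to match. The 12 windows held from 49% (Kdm3a) to 75% (Mxi1) G and C, against a median of 52.7% over all promoter windows. Only the Kdm3a window at 49% lay below that median. Both forms of the core contain CG, and the part of base content in these counts was not tested. Only Car12 held neither. Such matches are descriptions of the letters, and the absence of a match says only that these letters are not in this window.

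Reads on genes numbered 7741204 to 14013219 per library at day 0, 32820610 to 37306090 at day 4 and 10675858 to 15622755 at day 7. Levels are in RPKM (reads scaled to the library total and to the length of the gene model) and tests use CPM (reads scaled to the library total only). Day 7 was tested against day 0 with limma on log2(CPM + 0.5) in 12712 genes, and all 10 genes passed its filter, a mean of 1 CPM or more. Day 4 values come from separate tables of greater depth and were therefore compared by direction and overlap only. The noncoding gene Gm42418 took 11.97% of the reads of day 0 replicate 3, against 2.94% and 3.04% in the other day 0 libraries, and 81.6% of the 12782 genes that averaged 1 CPM or more across all 9 libraries had their lowest day 0 CPM in that library. Of 10 osteoblast markers, 9 rose from day 0 to day 7, where 12.6% of all genes tested rose and 18.6% fell. Endothelial markers were near 0 throughout (summed level at most 0.459 RPKM per library over 5 markers). Of 6 osteoclast markers, 2 passed the filter, and both rose: Ctsk from a mean of 120 to 232 RPKM and Acp5 from 0.745 to 6.59. Ocstamp, Calcr, Oscar and the fusion gene Dcstamp were too low to be tested, and Dcstamp had at most 3 reads in every library. All 7 of 7 macrophage markers also rose, with summed levels of 46.2 to 77.7 RPKM at day 0 and 88.8 to 117 at day 7. Of 10 dissociation and immediate early genes, 4 rose and 1 fell. Of 4 chondrocyte markers 3 fell and Acan rose, though Acan did not pass with edgeR or DESeq2 and was high in day 7 replicate 1 (19.0 RPKM, against 7.70 and 6.18 in replicates 2 and 3). The part of these cells or of digestion in the results below was not tested.

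By day 7, 9 of the 10 hypoxia targets had risen and 0 had fallen (limma, Benjamini-Hochberg adjusted p under 0.05), where 31.2% of all genes tested were called, 12.6% higher and 18.6% lower. Their median log2 fold change was 1.78, against −0.11 over all genes. Car9, Ankrd37 and Car12 rose most, followed by Bnip3, Ndrg1 and Mxi1. Kdm3a, Bnip3l and Ddit4 rose by less than 1 on the log2 scale, and without day 7 replicate 1 they did not pass, which left 6 genes. Adm did not pass. The count of 0 that fell was also 0 at an unadjusted p under 0.05 and with edgeR and DESeq2, which called the same number, 9, higher. For each of the 9 genes called, all day 7 values exceeded all day 0 values, which held for 17.1% of the 12782 genes. The exact permutation test of each gene gave p = 0.1 (two-sided) for those 9, the smallest that 3 libraries against 3 allow, and p = 0.7 for Adm. As these are bulk libraries, more cells that express a gene and more RNA per cell cannot be told apart.

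**Figure D1:**
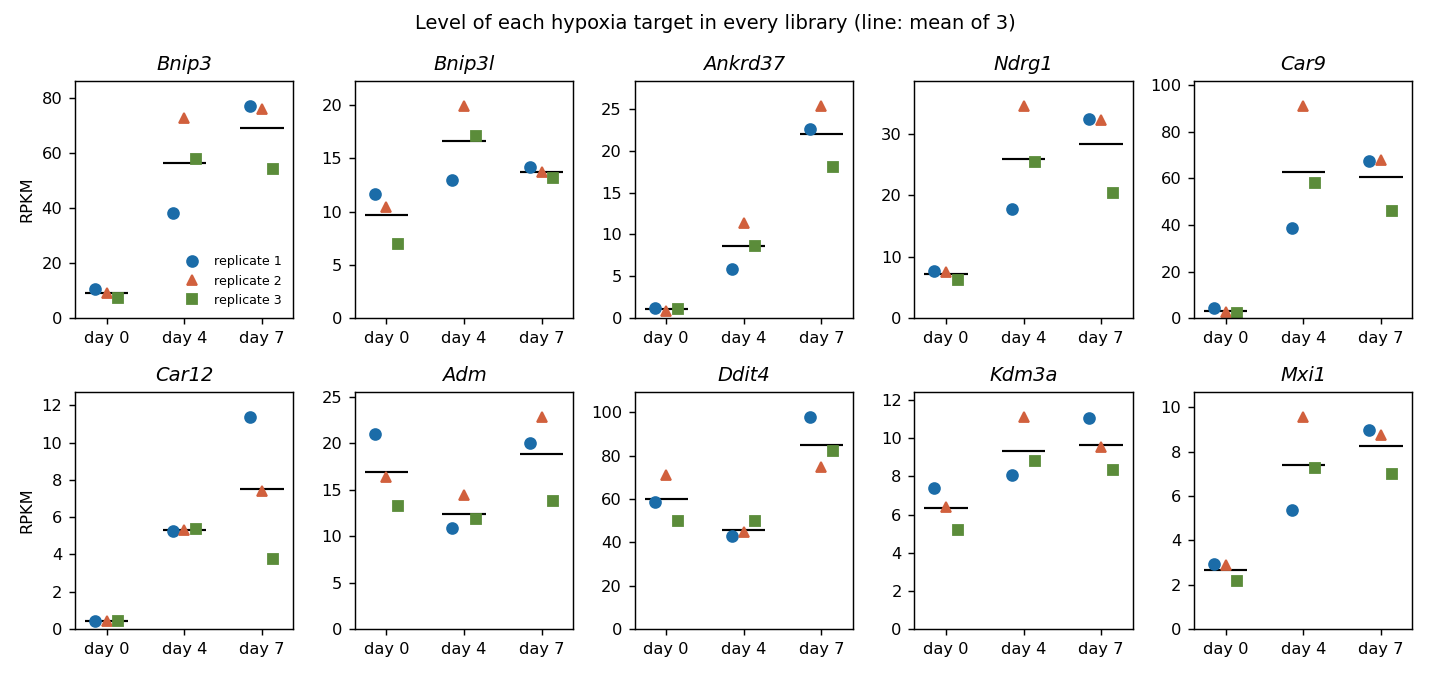
Level in RPKM (linear vertical axes that start at 0) of each of the 10 hypoxia targets in the 9 libraries at days 0, 4 and 7; symbols mark replicates and lines the mean of 3. Car9, for example, lay between 2.35 and 4.40 RPKM at day 0 and between 38.7 and 90.8 at day 4, and the Car12 libraries lay together at day 4 but between 3.75 and 11.4 at day 7.

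Bnip3 and Bnip3l encode related receptors of the outer mitochondrial membrane that tether damaged mitochondria to the autophagy machinery. Bnip3 (chromosome 7 of GRCm38, 138890836 to 138909519, reverse strand) had 10.8, 9.34 and 7.18 RPKM in day 0 replicates 1, 2 and 3, then 38.3, 72.9 and 57.9 at day 4, and 77.1, 76.1 and 54.3 at day 7. The lowest day 4 and day 7 libraries were thus far above the highest at day 0, and the log2 fold change from day 0 to day 7 was 2.90 (standard error 0.17, limma adjusted p = 1.18e-19). Bnip3l (chromosome 14, 66985239 to 67008877, reverse strand) had 11.7, 10.4 and 6.93 RPKM at day 0, 13.0, 19.8 and 17.1 at day 4, and 14.2, 13.7 and 13.1 at day 7. Its groups also did not overlap with day 0, but the rise to day 7 was small (log2 fold change 0.53, standard error 0.17, limma adjusted p = 0.0149), and without day 7 replicate 1 it did not pass (0.50, adjusted p = 0.0857). The RPKM of Bnip3 divided by that of Bnip3l in the same library was 0.922, 0.898 and 1.04 at day 0, and 5.43, 5.57 and 4.13 at day 7. The 2 genes thus began at like levels and parted in every library (change of the log2 ratio 2.40, two-sided p = 0.1 by the exact permutation test). Levels of both are uncertain, since 47.2% of the stretches of 50 bases in the Bnip3 transcripts and 20.8% of those in Bnip3l occur in other annotated genes, several of them pseudogenes, and the antisense gene Gm45507 covers 22.3% of the exonic bases of Bnip3.

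Of 19 other genes of mitophagy and autophagy tested, 2 rose, where 12.6% of all genes did, namely Bcl2 (log2 fold change 1.10, limma adjusted p = 5.03e-06), a survival factor that binds Becn1, and Optn (0.46, adjusted p = 0.0337), a receptor for ubiquitin-marked mitochondria. Another 2 fell, where 18.6% of all genes did, Bcl2l1 (−0.68, adjusted p = 0.00207) and Map1lc3b (−0.42, adjusted p = 0.0379). Pink1, the kinase of the ubiquitin-dependent route, had 24.0 RPKM at day 0 and 22.9 at day 7 (log2 fold change −0.06, adjusted p = 0.808). With edgeR and with DESeq2 6 of the 19 rose and 2 fell, and these tools called 22.2% and 20.3% of all genes higher.

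Car9 and Car12 encode carbonic anhydrases with an active site outside the cell, where they turn carbon dioxide into bicarbonate and acid. Car9 (chromosome 4, 43506966 to 43513729, forward strand) had 4.40, 2.76 and 2.35 RPKM at day 0, 38.7, 90.8 and 58.1 at day 4, and 67.6, 67.6 and 45.9 at day 7. It went from rank 7 of the 10 genes at day 0 to the highest mean of them at day 4, and its log2 fold change to day 7 was 4.18 (standard error 0.19, limma adjusted p = 3.32e-24). Car12 (chromosome 9, 66713686 to 66766845, forward strand) had 0.409, 0.424 and 0.398 RPKM at day 0, from 14 to 26 reads per library, then 5.26, 5.32 and 5.35 at day 4, and 11.4, 7.42 and 3.75 at day 7. It was low at day 0 and rose by 3.74 on the log2 scale (standard error 0.24, limma adjusted p = 2.72e-18), although day 7 replicate 3 lay below all day 4 libraries. The ratio of Car9 to Car12 was 10.8, 6.51 and 5.91 at day 0 and 5.94, 9.11 and 12.2 at day 7, so the groups overlapped (exact permutation test, two-sided p = 0.6). Car9 made up 16.3% to 23.7% of the summed RPKM of 16 carbonic anhydrase genes at day 0, 63.9% to 73.2% at day 4 and 56.6% to 60.9% at day 7. Of 9 carbonic anhydrase genes tested, 5 rose and 1 fell, where 12.6% of all genes rose and 18.6% fell. Those that rose beside Car9 and Car12 were Car3 (log2 fold change 4.76, adjusted p = 4.29e-23), Car8 (3.95, adjusted p = 1.11e-19) and Car13 (0.95, adjusted p = 0.000323), while Car10 fell by 0.72 (adjusted p = 0.0381), though not with DESeq2.

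Among 9 genes of acid and bicarbonate transport, 3 rose and 4 fell, where 12.6% of all genes rose and 18.6% fell. Slc16a3, a lactate and proton exporter that is itself a HIF target, rose most (log2 fold change 3.72, limma adjusted p = 7.16e-23).

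Ankrd37, a small ankyrin-repeat protein used as a hypoxia marker, was higher at each step. It lies on chromosome 8, 45996902 to 46005707, on the reverse strand. Its levels were 1.17, 0.894 and 1.10 RPKM at day 0, from 12 to 23 reads per library, then 5.92, 11.3 and 8.66 at day 4, and 22.6, 25.3 and 18.1 at day 7. Its 3 ranges did not overlap, with day 4 above day 0 and day 7 above day 4. The log2 fold change to day 7 was 3.98 (standard error 0.20, limma adjusted p = 9.81e-22), and the count models gave 4.51 (edgeR) and 4.53 (DESeq2) on the recovered reads. Exons of Ufsp2 and Lrp2bp on the other strand cover 26.4% of its exonic bases, and whether reads were counted by strand is not given in the sources used here.

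Ndrg1, a cytoplasmic stress-response protein, lies on chromosome 15, 66929318 to 66969640, on the reverse strand. It had 7.71, 7.53 and 6.19 RPKM at day 0, 17.7, 34.4 and 25.3 at day 4, and 32.3, 32.3 and 20.4 at day 7. All later libraries were above day 0, while days 4 and 7 overlapped, and the log2 fold change to day 7 was 1.95 (standard error 0.17, limma adjusted p = 9.61e-14). Its paralog Ndrg2 began lower and rose further, from 1.99 RPKM at day 0 to 16.1 at day 7 (log2 fold change 2.88, limma adjusted p = 3.56e-17). The ratio of Ndrg1 to Ndrg2 accordingly went from 3.29, 3.53 and 4.14 at day 0 to 1.80, 1.84 and 1.60 at day 7, with no overlap (change of the log2 ratio −1.06, exact permutation test, two-sided p = 0.1). Ndrg3 (log2 fold change 0.35, adjusted p = 0.0802) and Ndrg4 (0.01, adjusted p = 0.963) did not pass, although edgeR and DESeq2 called Ndrg3 higher.

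**Figure D2:**
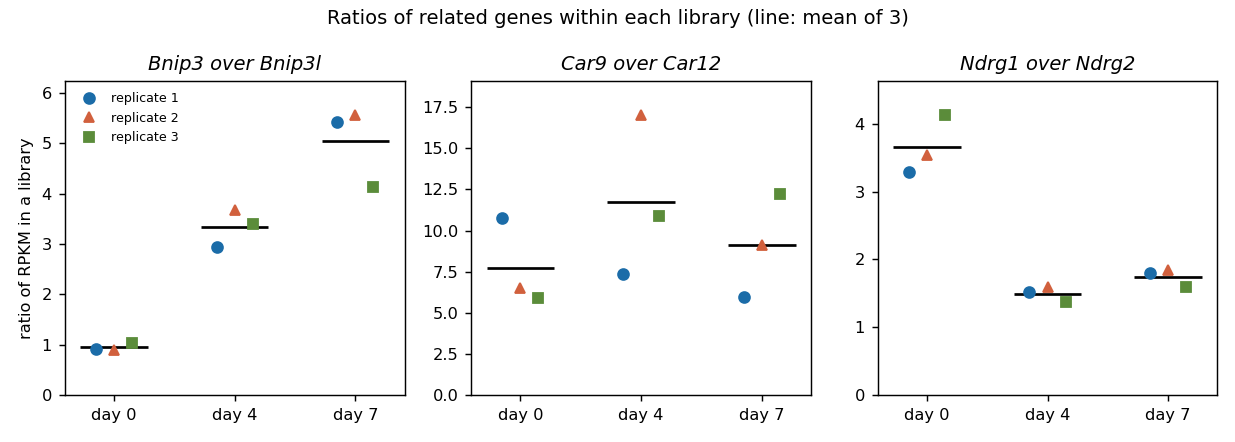
Ratio of the RPKM of 2 related genes in the same library (linear axes that start at 0) at days 0, 4 and 7; symbols mark replicates and lines the mean of 3. Bnip3 over Bnip3l was near 1 at day 0 and between 4.13 and 5.57 at day 7, Car9 over Car12 overlapped between the stages, and Ndrg1 over Ndrg2 was lower at days 4 and 7 than at day 0 in all libraries.

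Mxi1 encodes a partner of Max that opposes MYC at its target genes. On chromosome 19, 53310518 to 53375810, forward strand, it had 2.94, 2.89 and 2.16 RPKM at day 0, 5.36, 9.55 and 7.26 at day 4, and 8.99, 8.73 and 6.99 at day 7. Days 4 and 7 both lay above day 0 and overlapped with each other (log2 fold change from day 0 to day 7 1.60, standard error 0.17, limma adjusted p = 1.54e-10). Of 10 genes of the MYC and MAX network tested, 4 rose and 0 fell, where 12.6% of all genes rose and 18.6% fell. Mxi1 rose most. The other 3 were Mxd1 (1.09, adjusted p = 2.73e-06), Mycn (0.89, adjusted p = 0.0151) and Myc itself (0.52, adjusted p = 0.0137). Mycn was low, with 4 to 42 reads per library. Its range at day 0 (0.157 to 0.347 RPKM) overlapped that at day 7 (0.313 to 0.816). Mxd1 is a Max partner of the same kind as Mxi1, while Myc and Mycn are the factors that they oppose. The count of 0 that fell was 1 at an unadjusted p under 0.05 and with DESeq2, and 0 with edgeR.

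Kdm3a, a histone demethylase that uses oxygen, lies on chromosome 6, 71588972 to 71632990, on the reverse strand. Its levels were 7.38, 6.42 and 5.19 RPKM at day 0, 8.09, 11.1 and 8.82 at day 4, and 11.1, 9.57 and 8.35 at day 7. The stages after day 0 lay above it without overlap, but by a narrow margin (log2 fold change to day 7 0.61, standard error 0.17, limma adjusted p = 0.00418), and without day 7 replicate 1 it did not pass (0.50, adjusted p = 0.0689). Its paralog Kdm3b fell (−0.48, adjusted p = 0.0192) and Jmjd1c did not pass (−0.08, adjusted p = 0.731). The ratio of Kdm3a to Kdm3b had a mean of 0.821 at day 0 (SD 0.0523, n = 3) and 1.77 at day 7 (SD 0.278, n = 3), without overlap.

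Ddit4, which restrains mTORC1 through the Tsc complex, followed another course. On chromosome 10, 59949669 to 59951834, reverse strand, it had 58.6, 71.0 and 49.96 RPKM at day 0, 42.9, 44.8 and 49.6 at day 4, and 97.8, 74.7 and 82.4 at day 7. All day 4 values were below those of day 0, and all day 7 values above both. The lower level at day 4 rests on a gap of less than 1 RPKM between day 0 replicate 3 and day 4 replicate 3. The rise to day 7 was 0.51 on the log2 scale (standard error 0.16, limma adjusted p = 0.0113). Without day 7 replicate 1 it was 0.40 and did not pass (adjusted p = 0.125). Among 10 genes tested of mTORC1 and its control by stress, which include Mtor, Rptor and Rheb, Ddit4 was the 1 that rose (2 rose with edgeR). Of all genes, 12.6% rose. Another 4 fell, where 18.6% of all genes did, with Sesn3 the most (−2.18, adjusted p = 2.10e-16). Ddit4 is also induced by other stresses. Of 8 targets of the stress factor Atf4, 2 rose and 4 fell (Chac1 0.80, adjusted p = 3.80e-05, and Slc7a11 −0.90, adjusted p = 3.53e-05, at the ends), where 12.6% and 18.6% of all genes did. Among these 8, Trib3 averaged 66.4, 48.3 and 75.4 RPKM at days 0, 4 and 7, and did not pass (0.20, adjusted p = 0.363). In every day 4 library 3 of the 8 lay below day 0 and 2 above it, where 21.9% and 21.6% of all genes did. Of 5 glucocorticoid-induced genes tested 0 passed in either direction, also at an unadjusted p under 0.05, while edgeR and DESeq2 each called 2 higher. The part of these routes in the level of Ddit4 was not tested.

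Adm encodes adrenomedullin, a secreted peptide that widens vessels. On chromosome 7, 110627661 to 110629820, forward strand, it had 21.1, 16.4 and 13.2 RPKM at day 0, 10.9, 14.4 and 11.9 at day 4, and 20.03, 22.8 and 13.7 at day 7. All 3 stages overlapped, and the difference between days 7 and 0 did not pass (log2 fold change 0.15, standard error 0.18, limma adjusted p = 0.575). Without day 0 replicate 3 it was −0.00777. Its relative Adm2 rose from 2.17 to 20.4 RPKM (log2 fold change 2.97, limma adjusted p = 2.75e-17), so the ratio of Adm to Adm2 went from 9.93, 7.56 and 5.94 at day 0 to 0.897, 1.23 and 0.681 at day 7. Of 6 genes of adrenomedullin signalling tested, 3 rose and 1 fell, where 12.6% of all genes rose and 18.6% fell. Ramp1, which makes the receptor Calcrl respond to the related peptide CGRP, rose from 0.175 to 29.3 RPKM (6.50, adjusted p = 2.79e-29), the scavenging receptor Ackr3 rose by 1.88 (adjusted p = 8.91e-12), and Ramp2, which makes Calcrl an adrenomedullin receptor, fell (−0.58, adjusted p = 0.0418), though not with edgeR or DESeq2.

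**Figure D3:**
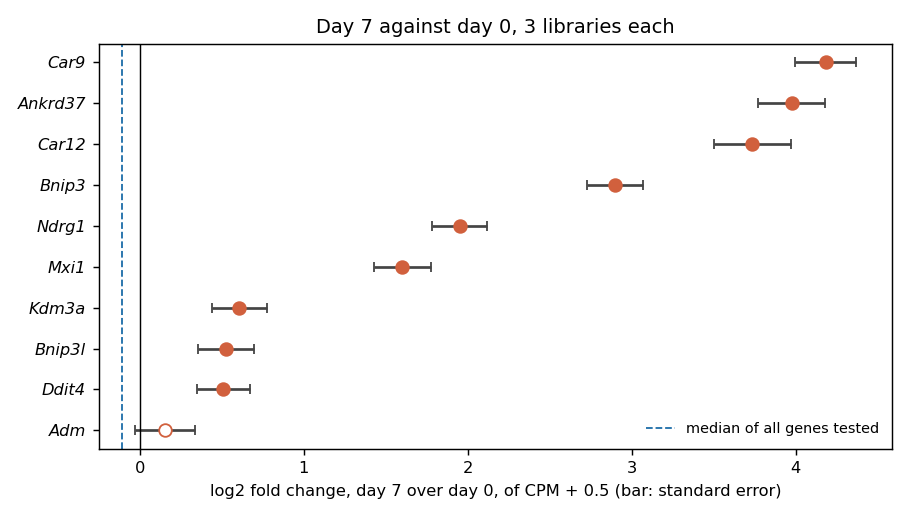
Log2 fold change of each of the 10 hypoxia targets from day 0 to day 7 (horizontal axis, log2 of CPM + 0.5; bars are standard errors from limma, 3 libraries per stage). Filled points passed an adjusted p of 0.05, the open point (Adm, 0.15) did not, and the dashed line is the median of all genes tested (−0.11).

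Day 4 was compared with the other stages by direction. For 8 of the 10 genes all day 4 values exceeded all day 0 values, where 21.6% of all genes did so, and 1 gene, Ddit4, lay below in every library, where 21.9% did so. Adm was also below in every library when day 0 replicate 3 or day 4 replicate 2 was left out. From day 4 to day 7 the mean was higher for 8 genes (40.1% of all genes) and lower for 2 (59.9%), Bnip3l and Car9. Of the 10 genes, Ankrd37 and Ddit4 alone had all day 7 values above all day 4 values, as did 13.6% of all genes, and 0 had all of them below, as did 25%. These counts turned on single libraries. Without day 4 replicate 1 the mean was higher at day 7 for 5 genes and lower for 5 (Bnip3l, Ndrg1, Car9, Kdm3a and Mxi1), and Bnip3l was lower in every library. Without day 7 replicate 3, 5 genes were higher in every library (Bnip3, Ankrd37, Car12, Adm and Ddit4). Of the 10 dissociation and immediate early genes, 8 were above day 0 and 7 above day 7 in every day 4 library, among them Fos (4.85, 23.9 and 5.10 RPKM on average at days 0, 4 and 7), and their part in the day 4 levels of the hypoxia targets was not tested. Depth, table and stage changed together at day 4 and cannot be told apart.

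The order of levels changed as well. At day 0 Ddit4 was the highest of the 10 (59.9 ± 10.6 RPKM, SD, n = 3), then Adm (16.9 ± 3.93), with neither overlapping its neighbour. Bnip3l, Bnip3, Ndrg1 and Kdm3a followed, each overlapping the next, then Car9 and Mxi1, which overlapped, and at the low end Ankrd37 (1.06 ± 0.144) and Car12 (0.410 ± 0.0128), which stood apart from each other. At day 4 Car9 (62.5 ± 26.3), Bnip3 (56.4 ± 17.4) and Ddit4 (45.8 ± 3.48) overlapped at the top, and lay above Ndrg1 (25.8 ± 8.36) in every library. Ndrg1, Bnip3l, Adm, Kdm3a, Ankrd37 and Mxi1 followed, each overlapping the next, and Car12 (5.31 ± 0.0474) lay just below Mxi1 without overlap. At day 7 the same 3 led in the order Ddit4 (85.0 ± 11.8), Bnip3 (69.2 ± 12.9) and Car9 (60.4 ± 12.5), again with overlap between neighbours. Ndrg1 (28.3 ± 6.89), Ankrd37 (22.0 ± 3.66), Adm (18.9 ± 4.65) and Bnip3l (13.7 ± 0.521) came next, each overlapping the one after it, and Kdm3a, Mxi1 and Car12, all under 12 RPKM in every library, overlapped at the end.

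Within day 4 the hypoxia targets differed between replicates more than most genes. The median SD of log2(CPM + 0.5) over the 3 libraries was 0.36 for the 10 genes and 0.10 for all 12782 genes, and 6 of the 10 were above the 90th percentile of all genes (0.26). Replicate 1 was the lowest library for 10 of the 10 genes, as it was for 31.2% of all genes, and replicate 2 the highest for 8 of the 10, against 24.1%. The order of replicate 2 above 3 above 1 held for 8 of the 10 genes and 17.8% of all genes. Car9 differed most, with 38.7 RPKM in replicate 1 and 90.8 in replicate 2, or 2.34-fold. The highest library was 1.94-fold above the lowest for Ndrg1, 1.91-fold for Ankrd37, 1.90-fold for Bnip3, 1.78-fold for Mxi1 and 1.53-fold for Bnip3l. Kdm3a (1.37-fold), Adm (1.33-fold) and Ddit4 (1.16-fold) moved less. Car12 was the exception, with 1.02-fold between its 3 libraries (SD 0.013), the smallest spread of the 10. From replicate 1 to replicate 2, 60% of the 10 genes were higher by at least 0.5 on the log2 scale, against 3.13% of all genes. The 95% counting intervals of these 2 libraries were separate for 8 of the 10 genes, all but Car12 and Ddit4. The counting intervals are exact Poisson intervals and cover counting error only. The share of all genes with separate intervals is not given here, so this count cannot be set against it.

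Within day 7 it was replicate 3 that was low. It was the lowest library for 9 of the 10 genes, where 22.5% of all genes had their lowest value in it. The exception was Ddit4, whose lowest library was replicate 2. The genes with the most reads were Plekhh2 in replicate 3 (7.95%), Gm42418 in replicate 2 (8.12%) and Col1a2 in replicate 1 (5.38%), and their part in these differences was not tested. The median SD was 0.26 for the 10 genes and 0.14 for all genes, and 4 of the 10 exceeded the 90th percentile (0.30). Car12 now had the widest spread, with 11.4 RPKM in replicate 1 and 3.75 in replicate 3, a 3.03-fold range (SD 0.79), and only 0.18% of all genes fell further between these libraries. Adm (1.66-fold), Ndrg1 (1.59-fold), Car9 (1.47-fold) and Bnip3 (1.42-fold) followed, and the SD was 0.24 for Ankrd37 and 0.20 for Kdm3a, Ddit4 and Mxi1. Bnip3l was nearly even (1.08-fold, SD 0.054). From replicate 1 to replicate 3, 50% of the 10 genes were lower by at least 0.5 on the log2 scale, against 3.88% of all genes.

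At day 0 the spread of the 10 genes was close to that of all genes (median SD 0.25 and 0.23). Replicate 3 was lowest for 9 of the 10, as for 81.6% of all genes, and after median-of-ratios scaling for 3. With that scaling, replicate 1 was still lowest for 10 of the 10 at day 4 and replicate 3 for 9 of the 10 at day 7.

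**Figure D4:**
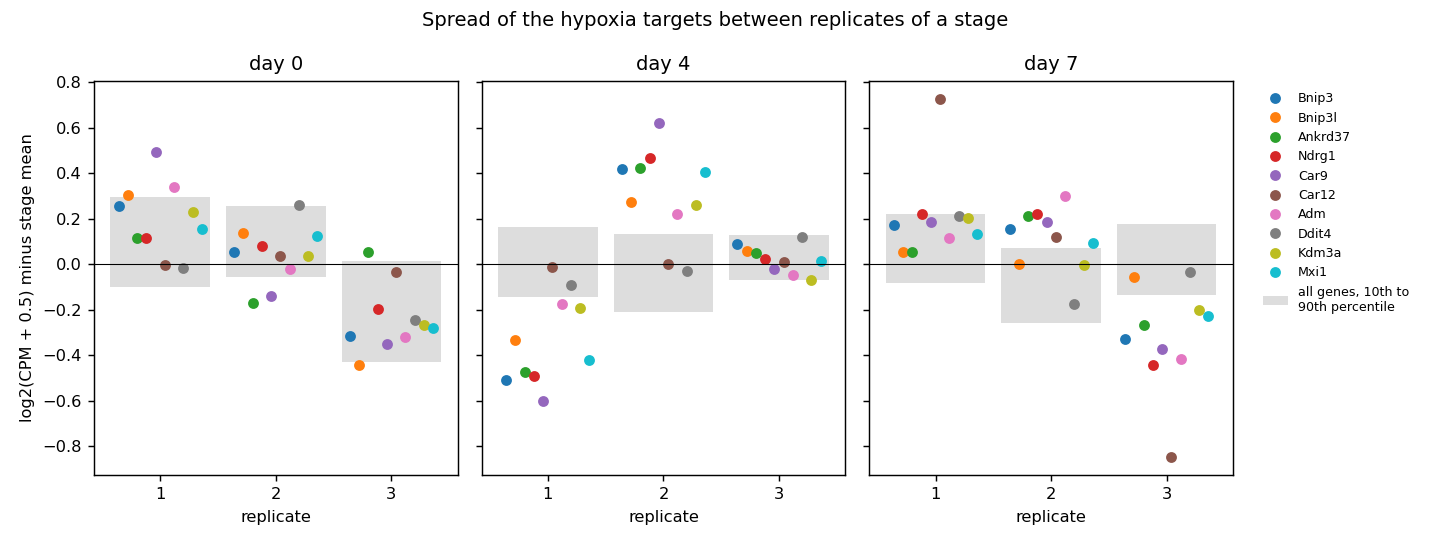
Deviation of each library from the mean of its stage, in log2(CPM + 0.5), for the 10 hypoxia targets (points, 1 colour per gene) at days 0, 4 and 7; grey bars run from the 10th to the 90th percentile of all 12782 genes. At day 4 most of the 10 genes lie below the bar in replicate 1 and above it in replicate 2, and at day 7 most lie below it in replicate 3, with Car12 the farthest.

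Genes of the same pathway shared this order of replicates. Of 21 HIF targets in glucose metabolism, 21 were lowest in replicate 1 at day 4 and 19 lowest in replicate 3 at day 7. Of 32 other HIF targets outside glycolysis, 26 and 25 were. Of 10 osteoblast markers, 6 and 5 were. At day 4 replicate 2 was highest for 8 of these 10 markers, as for 8 of the 10 hypoxia targets, against 24.1% of all genes. The order of replicate 2 above 3 above 1 held for 5 of the markers, against 17.8% of all genes. The summed level of the osteoblast markers was 14183, 16952 and 15757 RPKM in replicates 1, 2 and 3 at day 4, the order seen for most of the hypoxia targets. At day 7 it was 18628, 14839 and 14776, where replicate 1 was high and the other replicates were level. The summed level of 5 chondrocyte markers was highest in replicate 1 at each stage, with 164, 50.8 and 79.5 RPKM in replicates 1, 2 and 3 at day 4 and 124, 43.9 and 53.0 at day 7. The part of either marker group in the spread of the hypoxia targets was not tested. Hif1a, which encodes the main oxygen-regulated subunit, had 63.6, 65.4 and 68.4 RPKM in replicates 1, 2 and 3 at day 4. At day 7 it had 46.4, 40.4 and 36.6. Its own message was thus also lowest in replicate 1 at day 4, though by little and with replicate 3 highest. At day 7 it was lowest in replicate 3.

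**Figure D5:**
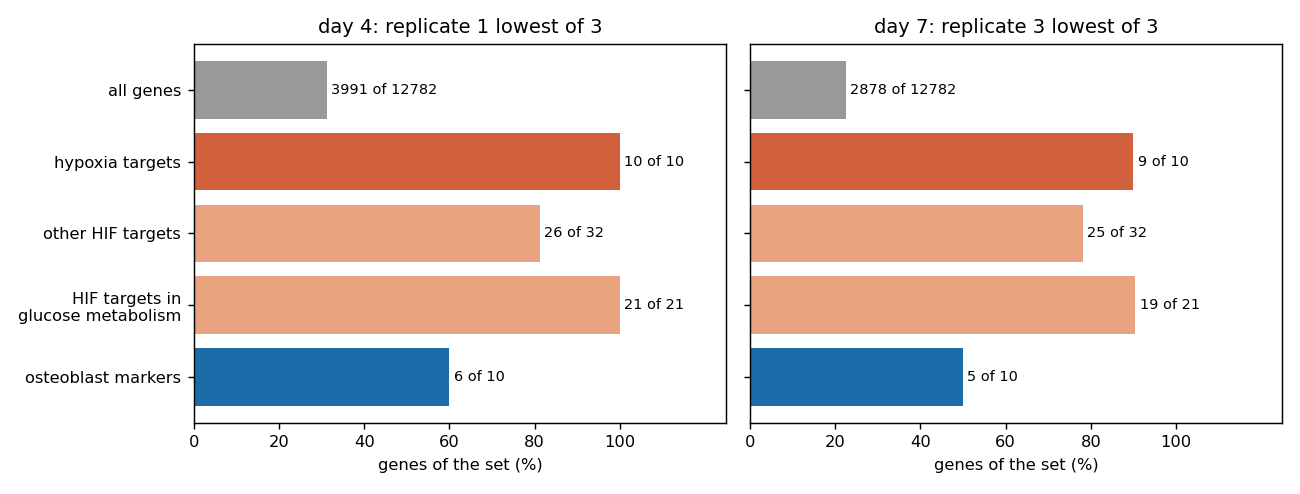
Share of genes (horizontal axis, percent, from 0) whose lowest library was replicate 1 at day 4 (left) or replicate 3 at day 7 (right), for all 12782 genes that averaged 1 CPM or more, the 10 hypoxia targets, 2 further lists of HIF targets and osteoblast markers. All 10 hypoxia targets were lowest in replicate 1 at day 4, against 31.2% of all genes, and 9 of 10 in replicate 3 at day 7, against 22.5%.

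Most HIF targets outside these 10 genes also rose from day 0 to day 7. Of the 32 other HIF targets outside glycolysis, 24 rose and 3 fell, with a median log2 fold change of 1.33. Over all genes 12.6% rose and 18.6% fell. Egln3, the oxygen sensor that HIF itself induces, rose most, from 1.94 to 57.3 RPKM (4.75, limma adjusted p = 4.28e-25), and Hmox1, the haem-degrading enzyme, fell most (−0.79, adjusted p = 4.93e-05). Tfrc and Cited2 were the other genes that fell. Of the 21 targets in glucose metabolism, 20 rose and 0 fell (also 0 at an unadjusted p under 0.05 and with edgeR and DESeq2), with Slc16a3 at the top, and Pfkfb4 did not pass (0.39, adjusted p = 0.151) except with edgeR, DESeq2, voomWithQualityWeights or median-of-ratios scaling. Among 9 HIF factors and oxygen sensors tested, the targets Egln1 (1.46, adjusted p = 2.99e-10) and Egln3 rose and Arnt2 fell (−1.27, adjusted p = 2.87e-07), and edgeR and DESeq2 also called Egln2 lower. Hif1a averaged 46.5, 65.8 and 41.1 RPKM at days 0, 4 and 7, and did not pass (−0.16, adjusted p = 0.494).

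Genes whose profile over the 9 libraries lay nearest to that of Bnip3 were sought among 9099 other genes that averaged 10 CPM or more, by the root mean square distance between profiles of log2(CPM + 0.5) centred on each gene's mean. The nearest 5 were Prelid2 (distance 0.145), P4ha2 (0.152), Ndrg2 (0.186), Higd1a (0.198) and Kbtbd11 (0.205). P4ha2, a collagen prolyl hydroxylase, and Higd1a, a mitochondrial protein, were on the list of other HIF targets, and Ndrg2 is the paralog of Ndrg1. Of the 10 hypoxia targets, Ndrg1 was nearest to Bnip3 (rank 45), then Ankrd37 (87), Car12 (88), Mxi1 (116) and Car9 (171). Bnip3l (578) and Kdm3a (607) were farther, and Ddit4 (2983) and Adm (4234) lay in the body of all genes.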

How the data were processed

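RNA was sequenced from 9 libraries of calvarial cells, 3 each at day 0, day 4 and day 7, grouped by the sample labels. Per the methods and the labels, the authors depleted ribosomal RNA, aligned reads with STAR 2.0.4b to GRCm38 (Ensembl annotation) and counted unambiguous reads per gene with featureCounts (1.45 in the submitters' processing notes). The strand setting is not given in the sources used here. The authors deposited CPM, which scale reads on genes to the library total, and RPKM, which also divide by gene length. All 18 columns matched a sample, and repeated lines of a gene were used once. In every library 100% of CPM values were whole reads within 0.05 of a read, so reads were recovered.

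The test of day 7 against day 0 used limma 3.58.1 (R 4.3.3, trended variances) on log2(CPM + 0.5) in the 12712 genes averaging 1 CPM or more in the 6 libraries, with p-values adjusted by Benjamini-Hochberg across these genes and a threshold of 0.05. The variance prior had 42.9 degrees of freedom against 4 residual, so a gene's own spread counted little. The scale understates changes of low genes. Depth ranged from 7741204 to 37306090 reads on genes, and counting intervals at 95% cover counting error only, since PCR copies were not marked. Single genes also had an exact permutation test (scipy 1.17.1). Day 4 entered no test. The code was tested on simulated data.

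Alternatives were pseudocounts of 0.1 and 1, other filters, median-of-ratios scaling, the RPKM table, edgeR 4.0.16, DESeq2 1.42.0 and voomWithQualityWeights on recovered reads, robust variances, the replicate number as a block, and each library left out. The genes described and the gene lists were chosen with earlier results of these data known. Named genes are the 10 targets, the largest rise and fall in each list, members of small lists, paralogs and the 5 genes nearest to Bnip3; others were named after their values were seen. The largest fall in 1 list is not reported here. The within-library ratios were also chosen after seeing the values. Gene positions and shared stretches of 50 bases come from GENCODE M21 (GRCm38), and promoters from RefSeq (GRCm38.p6).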

Additional observations from a re-analysis of the deposited data

How the results depend on the processing

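Car9, Ankrd37, Car12, Bnip3, Ndrg1 and Mxi1 were past the threshold in 17 of 17 alternatives and Adm in 0 of 17. Bnip3l, Ddit4 and Kdm3a passed in 16 of 17, the exception for each being the fit without day 7 replicate 1. The log2 fold change of Adm ranged from −0.00777 (without day 0 replicate 3) to 0.36 (without day 7 replicate 3). The number of the 32 other HIF targets that fell was 3, and 1 to 3 when single libraries were left out. When single libraries were left out, 6 to 9 of the 10 hypoxia targets rose from day 0 to day 7, 1 to 2 lay below day 0 in every day 4 library, the mean was higher on day 7 than on day 4 for 5 to 9 and lower for 1 to 5, and 2 to 5 lay above and 0 to 1 below day 4 in every day 7 library. With median-of-ratios scaling, 1 target, Bnip3l, was lower at day 7 than at day 4, since Car9 turned higher, and 3 had their lowest day 0 value in replicate 3. Over all genes, 1602 were called higher and 2369 lower as deposited, 2843 and 2611 with median-of-ratios scaling, and 3971 in all against 6120 with voomWithQualityWeights and 6299 without day 0 replicate 3. No target changed direction from day 0 to day 7 with that scaling. Replicate numbers are shared between the stages, but same-numbered day 0 and day 7 libraries did not deviate together (correlations −0.017, −0.181 and −0.444), so the numbers were not taken as pairs. Day 4 was not part of this check, and the summed chondrocyte markers had replicate 1 highest and replicate 2 lowest at each stage. With the replicate number as a block, 9 targets were higher and 0 lower, and 3413 genes were called in all. At 12 to 26 reads per library, the day 0 levels of Ankrd37 and Car12 are the least precise among the 10 targets. Some other named genes had fewer in their lowest library, with 1 read for Ramp1, 2 for Car3, 3 for Car8 and 4 for Mycn. Acp5 and Car10 had 9.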
